A study of Homo sapiens with 4 samples.

Results

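The MYC, MAX and MXD network was described here through 10 genes: MYC, MYCN, MYCL, MAX, MXD1, MXD3, MXD4, MXI1, MNT and MLX. They were chosen by name as members of the network and by no cut on a measured value, but with earlier results of these data known. They are 10 of the 50868 genes listed in the RNA-seq files. The cells were Jurkat, an established human T-cell leukaemia line that is labelled wild type, and all libraries were made after 24 h of culture. The first library came from cells given DMSO, the solvent control, and the second from cells given 0.5 μM JQ1, an inhibitor that displaces BET bromodomain proteins from acetylated chromatin. The third came from cells given DMSO together with PHA at 150 ng/ml, a plant lectin that stimulates T cells, and the fourth from cells given both agents at those doses. The study asked what BET inhibition does in T cells, and the files hold 1 library per condition, so no value below has a replicate and no test between conditions was made.

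The proteins of this network share a helix-loop-helix leucine zipper that pairs them and binds the DNA sequence known as the E-box. MYC, MYCN and MYCL pair with MAX and activate genes of growth, ribosome production and metabolism, whereas the MXD proteins, MXI1 and MNT pair with MAX at similar sites and recruit the SIN3 and histone deacetylase corepressor. MLX is a MAX-like partner that pairs with the glucose sensors MondoA and ChREBP and with MXD1, MXD4 and MNT. In leukaemic cells MYC is the gene for which BET inhibitors are best known.

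Because the network acts on E-boxes, the 250 bases before the RefSeq transcription starts of the members were searched for the letters CACGTG, which read the same on both strands, on GRCh38.p14. The table of promoters held 9 of the 10 members, and the motif was present in 3 of them, against 2110 of 27305 gene symbols (7.73%) and 2228 of 35116 promoters (6.34%). Of the genes that the Jurkat libraries held at a mean of at least 1 FPKM, 7630 had an entry in the table, and 890 of these (11.7%) held the motif. The matching stretches are printed because they place the letters bound by the network beside its own genes, with the motif in capitals and 12 flanking bases on each side. The MXD4 stretch lies at chr4:2262330-2262359 on the minus strand, with the motif 238 to 233 bases before the start. The MNT stretch lies at chr17:2401236-2401265 on the minus strand, with the motif 193 to 188 bases before the start. The MLX stretch lies at chr17:42567038-42567067 on the plus strand, with the motif 50 to 45 bases before the start.
MXD4: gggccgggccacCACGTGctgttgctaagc
MNT: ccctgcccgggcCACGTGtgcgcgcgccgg
MLX: gcgggcgcgggtCACGTGggcacgccaccc
The windows of MYCL, MYCN, MAX, MXD1, MXD3 and MXI1 held no match, which says only that these letters are not in those bases. A match is a run of letters and not a measured binding site.

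Libraries held between 18620954 and 19685401 counts of reads on genes. The markers of T cells were present, with all 10 of the listed genes at a mean of at least 1 FPKM (fragments scaled by gene length and by library total). Their summed FPKM was 316 in DMSO, 151 in JQ1, 348 in DMSO + PHA and 169 in JQ1 + PHA, so it was lower in both JQ1 libraries, and its part in the results below was not tested. Among B-cell markers CD79A had a mean of at least 1 FPKM, while CD79B, MS4A1 and PAX5 were under 0.1 in every library. None of the 5 myeloid, 4 NK-cell and 3 erythroid markers reached a mean of 1 FPKM. In bulk RNA, fewer cells of a kind and less RNA per cell cannot be told apart.

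Among the activators, MYC was higher with JQ1 and MYCL was lower, with and without PHA. MYC (ENSG00000136997, chromosome 8, 127735434 to 127741434, plus strand), the family member most widely used by dividing cells, had an FPKM of 0.629 in DMSO, 1.55 in JQ1, 0.918 in DMSO + PHA and 2.72 in JQ1 + PHA, from 106, 273, 162 and 454 counts. Its share of counts was 2.46 times as high in JQ1 as in DMSO, a log2 ratio of 1.30 (0.97 to 1.64), and 2.96 times as high in JQ1 + PHA as in DMSO + PHA, a log2 ratio of 1.57 (1.31 to 1.83). These and all further log2 ratios compare shares of the library total, and their 95% exact intervals cover counting error only. MYC stood highest where both agents were given and lowest where neither was. The paper cites reports that JQ1 works against cancer cells by targeting c-Myc, whereas MYC RNA was higher with JQ1 in these libraries. On the deposited scale MYC lay at the 40.4th percentile of FPKM among genes with counts in DMSO and at the 62.3rd in JQ1 + PHA. This is low for Jurkat, a line known to express MYC well, and the labels give no reason for it. The length behind its FPKM, 8963 bases, exceeds the 6001 bases that its locus spans.

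MYCL (ENSG00000116990, chromosome 1, 39895426 to 39902256, minus strand), the family member first found amplified in lung cancer, had an FPKM of 0.778 in DMSO, 0.111 in JQ1, 0.576 in DMSO + PHA and 0.228 in JQ1 + PHA, from 107, 16, 83 and 31 counts. The log2 ratio of its share of counts was -2.81 (-3.66 to -2.04) for JQ1 against DMSO and -1.34 (-1.99 to -0.73) for JQ1 + PHA against DMSO + PHA. The former corresponds to a share 6.99 times as high in DMSO as in JQ1. MYCL was thus opposite to MYC in both JQ1 comparisons. The overlapping gene RP1-118J21.5 had 2, 0, 5 and 0 counts in the order above.

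MYCN (ENSG00000134323, chromosome 2, 15940564 to 15947007, plus strand), the paralog known from neuroblastoma, was scarce, with 17 counts in DMSO, 11 in JQ1, 37 in DMSO + PHA and 16 in JQ1 + PHA and an FPKM between 0.215 and 0.722. Its log2 ratio for JQ1 against DMSO was -0.69 (-1.93 to 0.49), a difference that was not detectable at this depth. With PHA the ratio was -1.13 (-2.07 to -0.25), so the intervals leave MYCN lower with JQ1 in the stimulated cells. Its antisense neighbour MYCNOS had 0 counts in every library.

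The obligate partner MAX (ENSG00000125952, chromosome 14, 65006174 to 65102695, minus strand) was lowest in the untreated cells. MAX had an FPKM of 3.76 in DMSO, 6.17 in JQ1, 7.09 in DMSO + PHA and 7.34 in JQ1 + PHA, from 1056, 1810, 2083 and 2039 counts. DMSO stood below the other 3 libraries, and JQ1 stood below both libraries with PHA. The log2 ratio was 0.71 (0.60 to 0.82) for JQ1 against DMSO and 0.05 (-0.04 to 0.14) for JQ1 + PHA against DMSO + PHA. MAX overlaps FNTB, with 328 to 438 counts per library, and CHURC1-FNTB, with 27 to 103, and whether the counting used strand is not given in the sources used here.

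MLX (ENSG00000108788, chromosome 17, 42567068 to 42573239, plus strand) was the member with the highest mean level, at 10.6 FPKM in DMSO, 7.69 in JQ1, 11.2 in DMSO + PHA and 7.35 in JQ1 + PHA, from 1736, 1312, 1911 and 1187 counts. Both JQ1 libraries were lower than both DMSO libraries. The log2 ratio was -0.47 (-0.57 to -0.36) without PHA and -0.61 (-0.71 to -0.50) with it. Its neighbour PSMC3IP, which overlaps it, had between 495 and 750 counts.

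**Figure D1:**
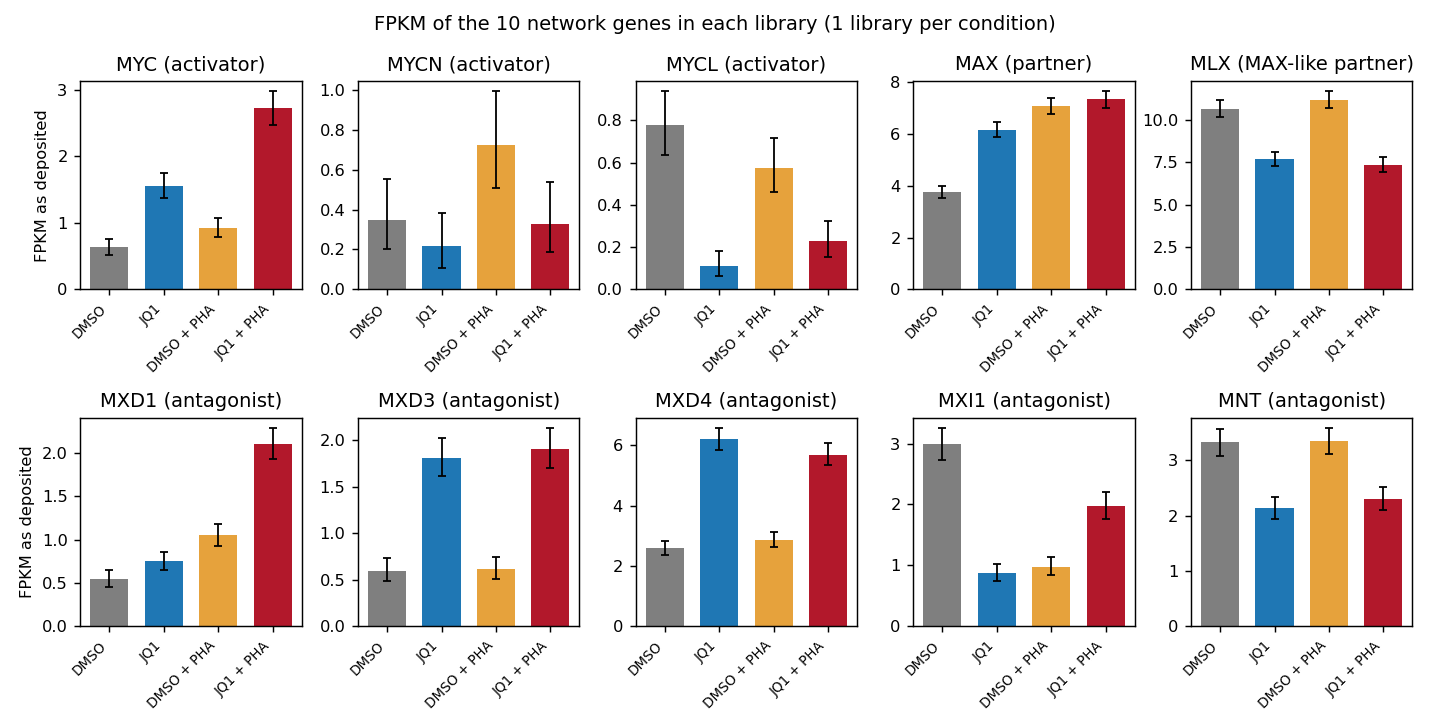
Deposited FPKM (vertical axes, each starting at 0 with its own scale) of the 10 members in the DMSO, JQ1, DMSO + PHA and JQ1 + PHA libraries. Bars are the value of the single library and whiskers the 95% exact Poisson interval of its count, so MYC is seen to span 0.629 in DMSO to 2.72 in JQ1 + PHA while MYCL is lower in both JQ1 bars and MXI1 is lowest, at 0.870 and 0.973, in the libraries with 1 agent.

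The antagonists did not move as a block. MXD3 and MXD4 were higher with JQ1 whether PHA was present or not, MXD1 was higher with either agent and highest with both, MNT was lower with JQ1, and MXI1 changed direction with PHA.

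MXD3 (ENSG00000213347, chromosome 5, 177301461 to 177312757, minus strand), the MXD protein associated with the S phase of cycling progenitors, had an FPKM of 0.596 in DMSO, 1.81 in JQ1, 0.617 in DMSO + PHA and 1.91 in JQ1 + PHA, from 97, 308, 105 and 307 counts. The 2 JQ1 libraries were alike and the 2 DMSO libraries were alike. The JQ1 log2 ratio was 1.60 (1.27 to 1.95) in unstimulated and 1.63 (1.30 to 1.96) in stimulated cells, the highest of the members in both comparisons. Its intervals overlapped those of MYC in both, and in unstimulated cells also that of MXD4. MXD3 overlaps PRELID1, with 581 to 871 counts, and RAB24, with 101 to 143.

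MXD4 (ENSG00000123933, chromosome 4, 2247432 to 2262294, minus strand), an antagonist found in differentiating and resting cells and a gene with the E-box printed above, had an FPKM of 2.58 in DMSO, 6.22 in JQ1, 2.85 in DMSO + PHA and 5.70 in JQ1 + PHA, from 445, 1120, 514 and 971 counts. It was the antagonist with the highest mean FPKM, and its JQ1 libraries were above its DMSO libraries. The log2 ratio was 1.27 (1.11 to 1.43) in unstimulated cells and 0.998 (0.84 to 1.15) in cells given PHA.

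MXD1 (ENSG00000059728, chromosome 2, 69897688 to 69942945, plus strand), induced as cells of the blood leave the cycle, had an FPKM of 0.544 in DMSO, 0.749 in JQ1, 1.05 in DMSO + PHA and 2.11 in JQ1 + PHA, from 134, 193, 271 and 514 counts. The order of the libraries was the order seen for MYC only at its ends, since DMSO + PHA stood above JQ1. The JQ1 log2 ratio was 0.46 (0.14 to 0.79) in unstimulated cells and 1.004 (0.79 to 1.22) after PHA. SNRNP27, which overlaps MXD1, had between 780 and 899 counts.

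MXI1 (ENSG00000119950, chromosome 10, 110207605 to 110287365, plus strand), also called MXD2, had an FPKM of 2.99 in DMSO, 0.870 in JQ1, 0.973 in DMSO + PHA and 1.98 in JQ1 + PHA, from 493, 150, 168 and 323 counts. It was highest in the library with neither agent, lowest with 1 agent and between these with both. The log2 ratio for JQ1 was -1.78 (-2.05 to -1.51) in unstimulated cells, a share 3.44 times as high in DMSO as in JQ1, and 1.02 (0.75 to 1.30) with PHA. The listed genes that overlap MXI1 had 0 counts in every library.

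MNT (ENSG00000070444, chromosome 17, 2384060 to 2401118, minus strand), the antagonist that is expressed in cycling and resting cells alike, had an FPKM of 3.32 in DMSO, 2.13 in JQ1, 3.34 in DMSO + PHA and 2.30 in JQ1 + PHA, from 717, 481, 755 and 491 counts. Its DMSO libraries were alike, and its JQ1 libraries were lower. The log2 ratio was -0.64 (-0.81 to -0.47) in the absence of PHA and -0.54 (-0.71 to -0.37) in its presence. RP1-59D14.1, which overlaps MNT, had at most 3 counts in a library. MNT and MLX, both with an E-box in the searched window, were lower with JQ1, whereas MXD4, with one too, was higher.

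For JQ1 against DMSO, the counting interval lay above 0 for 5 of the 10 members (MYC, MAX, MXD1, MXD3, MXD4) and below 0 for 4 (MYCL, MXI1, MNT, MLX). This is 9 of 10, read against 60.0% of the 18039 genes whose mean FPKM reached 0.1, since at this depth counting error alone is small for many genes. Past 2-fold on the scale of log2 of FPKM + 0.1, among the 8 members whose mean FPKM reached 1, 3 were higher (MYC, MXD3, MXD4) and 1 was lower (MXI1), where 5.22% of the 11503 genes that pass the same filter were higher and 8.65% lower. MYC, MXD1 and MXD3 were below 1 FPKM in DMSO, and MXI1 was below it in JQ1 and in DMSO + PHA, so these genes passed the filter through libraries in which they were higher. The counts past 2-fold, here and in the other comparisons, are therefore a description. MYCN and MYCL, at means of 0.404 and 0.423 FPKM, did not pass it, and MYCL was past 2-fold lower in this comparison and in the next. In the next, 0 members were past 2-fold lower with edgeR's TMM factors, so that call of MYCL depends on the scale.

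For JQ1 + PHA against DMSO + PHA, the interval lay above 0 for 5 members (MYC, MXD1, MXD3, MXD4, MXI1) and below 0 for 4 (MYCN, MYCL, MNT, MLX), 9 of 10 again against 58.1% of genes. Past 2-fold, 2 of the 8 members were higher (MYC and MXD3) and 0 lower, against 3.69% and 8.0% of genes. MXD1, MXD4 and MXI1 lay so near 2-fold that the scale decides them: with edgeR's TMM factors 4 members were past it and with a pseudocount of 1 none was.

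Whether the JQ1 ratio was the same with and without PHA was read from the ratio of ratios, with its exact interval. The JQ1 log2 ratio with PHA exceeded that without by 2.80 (2.42 to 3.19) for MXI1, by 1.47 (0.44 to 2.53) for MYCL and by 0.54 (0.15 to 0.94) for MXD1. It was lower with PHA for MAX, at -0.66 (-0.81 to -0.52), and for MXD4, at -0.27 (-0.49 to -0.04). For the other 5 members the interval held 0, and for MYC the difference was 0.27 (-0.16 to 0.69). The direction of the JQ1 ratio was the same with and without PHA for 9 of the 10 members, MXI1 being the exception. Among the 9, MAX with PHA and MYCN without it had intervals that held 0, so their direction is not settled. The shares over all genes were not computed for this count or for the intervals above, so both are descriptions.

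**Figure D2:**
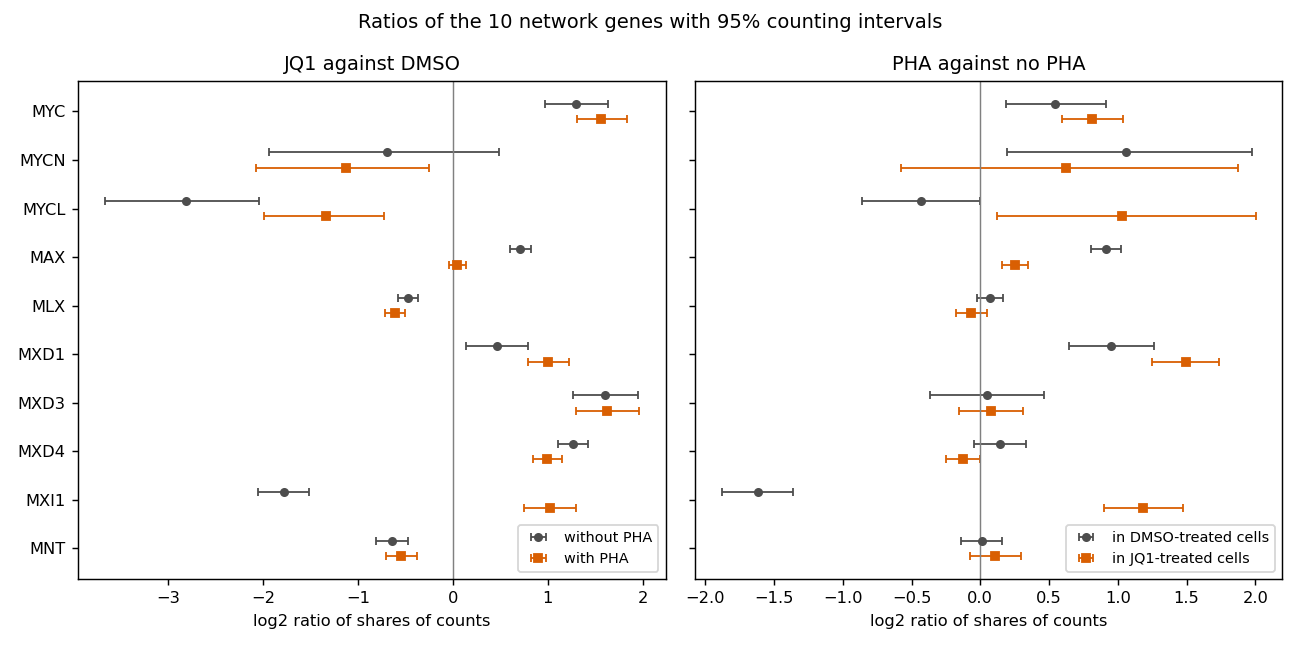
Log2 ratio of the share of counts (horizontal axis) for each of the 10 members, with JQ1 against DMSO on the left and PHA against no PHA on the right. Points are the ratio of 2 libraries and whiskers its 95% exact counting interval, and MXI1 is the gene whose points lie on opposite sides of 0 with intervals clear of it in both panels, at -1.78 and 1.02 for JQ1 and at -1.62 and 1.19 for PHA.

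PHA alone, in DMSO-treated cells, went with more MAX, MXD1, MYC and MYCN and with less MXI1. The log2 ratio for DMSO + PHA against DMSO was 0.91 (0.81 to 1.02) for MAX, 0.95 (0.65 to 1.26) for MXD1, 0.55 (0.18 to 0.91) for MYC and 1.06 (0.19 to 1.98) for MYCN. It was -1.62 (-1.88 to -1.36) for MXI1, whose share was 3.07 times as high in DMSO, and -0.43 (-0.86 to -0.00) for MYCL. The interval lay above 0 for 4 members and below 0 for 2, against 38.3% of genes with an interval clear of 0. The upper limit of MYCL was -0.0045, and centring on the median gene moved this comparison by 0.0063, so the scaling decides whether MYCL is counted. Past 2-fold, none of the 8 members was higher and MXI1 was lower, against 2.10% and 1.19% of genes. The remaining members, MXD3, MXD4, MNT and MLX, had ratios between 0.01 and 0.14, with 0 inside each interval. This comparison and that of JQ1 against DMSO share the DMSO library.

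In JQ1-treated cells, PHA went with higher values of 5 members. The log2 ratio for JQ1 + PHA against JQ1 was 1.49 (1.25 to 1.74) for MXD1, 1.19 (0.90 to 1.48) for MXI1, 1.03 (0.12 to 2.00) for MYCL, 0.81 (0.59 to 1.04) for MYC and 0.25 (0.16 to 0.34) for MAX. MXD4 was lower, at -0.13 (-0.25 to -0.00). Its upper limit was -0.00105, and TMM factors moved this comparison by 0.00198, so the scaling decides whether MXD4 is counted. The interval lay clear of 0 for 6 members, against 24.0% of genes, and 2 of the 8 members were past 2-fold higher (MXD1, MXI1) and 0 lower, against 1.04% and 1.03%. The direction of the PHA ratio was the same in DMSO and in JQ1 for 6 of the 10 members. Among the 6, the intervals held 0 for MXD3 and MNT in both comparisons and for MYCN in JQ1. The share over all genes was not computed, so this count is a description.

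Activators were set against antagonists by summing FPKM, a scale per length, within each group of genes. The 3 activators summed to 1.75 FPKM in DMSO, 1.87 in JQ1, 2.22 in DMSO + PHA and 3.28 in JQ1 + PHA. The 5 antagonists summed to 10.0, 11.8, 8.84 and 14.0 FPKM in the same order. Activator transcripts were therefore fewer than antagonist transcripts in every library, at a ratio of 0.175 (0.150 to 0.203) in DMSO, 0.159 (0.140 to 0.181) in JQ1, 0.251 (0.218 to 0.289) in DMSO + PHA and 0.234 (0.212 to 0.259) in JQ1 + PHA, with approximate 95% counting intervals. JQ1 left the ratio at 0.911 of its value without PHA and 0.934 with PHA, and the intervals of each pair overlapped. PHA went with a ratio 1.44 times as high in DMSO and 1.47 times as high in JQ1, with intervals that did not overlap. The JQ1 direction rests on MXD4 and on the length scale. Without MXD4 the JQ1 folds of the ratio were 1.43 and 1.07, and from counts scaled to the library total with no length they were 1.09 and 1.24. The PHA folds stayed above 1 in every alternative computed, but their size depended on the setting. Without MXI1 the PHA fold in DMSO was 1.13, and as a ratio of geometric means the PHA fold in JQ1 was 1.08.

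Within the activators, the makeup differed between the JQ1 and the DMSO libraries. MYC made 46.1% (Wilson 95% interval 39.8 to 52.5) of the 230 activator counts in DMSO, 91.0% (87.2 to 93.7) of 300 in JQ1, 57.4% (51.6 to 63.1) of 282 in DMSO + PHA and 90.6% (87.7 to 92.9) of 501 in JQ1 + PHA. By FPKM, which takes length into account, MYC held 35.8%, 82.6%, 41.4% and 83.0% in the same order. On either scale the activator pool was mostly MYC in both JQ1 libraries. By FPKM, MYCL held 44.3% and MYCN 19.8% in DMSO, and MYCN held 32.6% in DMSO + PHA. Among the antagonists, MXD4 held 25.7%, 52.8%, 32.3% and 40.7% of the summed FPKM in DMSO, JQ1, DMSO + PHA and JQ1 + PHA. MNT held 33.1%, 18.1%, 37.8% and 16.4%. MXI1 held 29.8% in DMSO and between 7.38% and 14.1% in the other libraries.

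**Figure D3:**
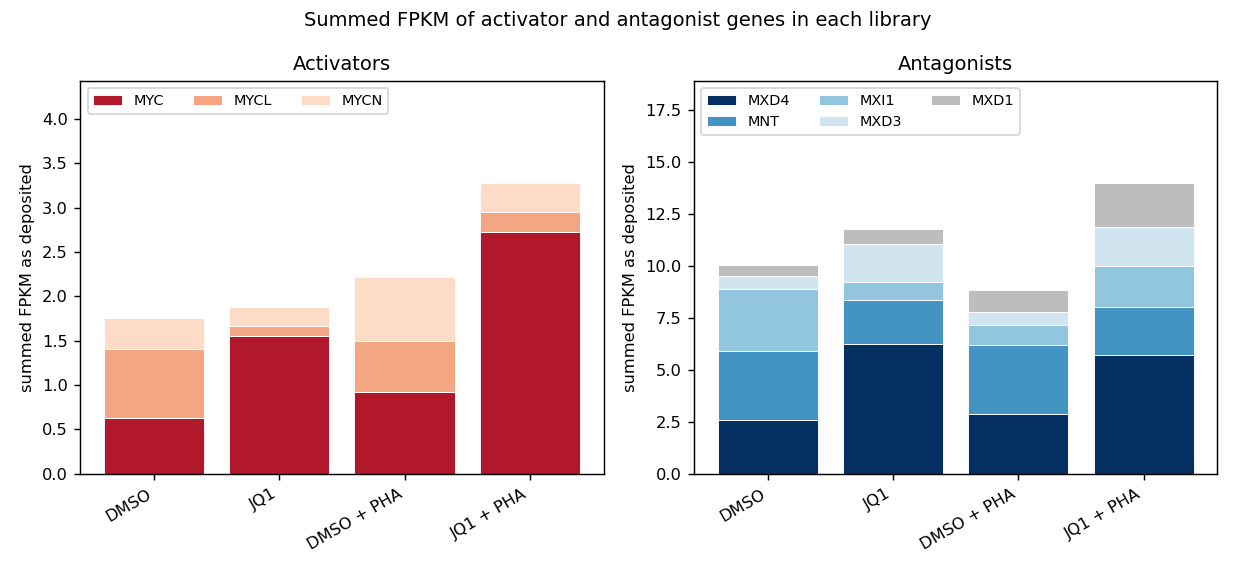
Summed deposited FPKM (vertical axes, which differ between the panels) of the activators MYC, MYCL and MYCN on the left and of the antagonists MXD4, MNT, MXI1, MXD3 and MXD1 on the right, in each library. Each segment is 1 gene, and MYC fills most of the activator bar in the JQ1 libraries while MXD4 is the largest antagonist segment in them.

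In order of mean FPKM over the libraries, MLX (9.22) stood first, followed by MAX (6.09), MXD4 (4.34), MNT (2.77), MXI1 (1.70), MYC (1.45), MXD3 (1.23), MXD1 (1.11), MYCL (0.423) and MYCN (0.404). Neighbours in the order often could not be separated. In DMSO, intervals of neighbours did not overlap only between MLX and MAX and between MXD4 and MYCL, and in JQ1 + PHA those of MYC, MNT, MXD1, MXI1 and MXD3 overlapped from each to the next. The lengths behind the FPKM were 0.944 to 2.38 times the joined exon length of these genes in GENCODE release 44, so the order was also computed with the latter. For MYC the joined exon length was 6109 bases. MYC then fell from the sixth to the eighth place, behind MXD1 and MXD3, at 2.13 on the scale recomputed with exon length.

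Of the relatives beside the 10 members, MGA, the giant MAX partner that also carries a T-box domain, was the most even, at 6.25, 5.94, 6.58 and 5.86 FPKM in DMSO, JQ1, DMSO + PHA and JQ1 + PHA. MLXIP, which encodes MondoA, was at 4.43, 7.13, 4.53 and 6.98 FPKM, a JQ1 log2 ratio of 0.68 (0.60 to 0.77) without PHA and 0.62 (0.54 to 0.71) with it. It was higher with JQ1 while its partner MLX was lower. MLXIPL, which encodes ChREBP, had 1, 0, 3 and 0 counts.

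The textbook targets that MYC induces were lower with JQ1 as a list, although MYC itself was higher. The list was drawn up with earlier results of these data known, so its counts are a description. Of the 35 listed genes 34 had a mean FPKM of at least 1, and for JQ1 against DMSO all 34 had a log2 ratio of FPKM + 0.1 below 0, with a median of -1.19 against -0.01 over all 11503 genes. Of all 11503 genes, 5838 were below 0. Past 2-fold, 22 of the targets were lower and 0 higher, against 8.65% and 5.22% of all genes. With PHA the median was -1.06 against -0.02, with 32 below 0 (5923 of all genes), 18 past 2-fold lower and 0 higher, against 8.0% and 3.69% of all genes past 2-fold. Between PHA and no PHA the list had medians of -0.16 in DMSO and -0.01 in JQ1 and 0 genes past 2-fold. In DMSO 30 of the 34 targets were below 0 with PHA, against 5877 of all genes. In JQ1 18 were below 0, against 5852 of all genes.

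Among these 34, the 3 targets with the lowest ratios in both JQ1 comparisons were CCND2, NME1 and NOP16. CCND2, the cyclin D2 gene, was at 4.55 FPKM in DMSO, 0.650 in JQ1, 3.48 in DMSO + PHA and 0.701 in JQ1 + PHA. NME1, a nucleoside diphosphate kinase whose reads may be shared with the adjacent paralog NME2, was at 19.8, 3.63, 16.6 and 3.75 FPKM in the same order. NOP16, a nucleolar protein of ribosome assembly, was at 7.75, 1.75, 5.76 and 1.56 FPKM. All 3 were lower in both JQ1 libraries than in both DMSO libraries, the reverse of MYC.

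Of the 14 listed genes that MYC is known to repress, 6 passed the filter, with a median of 0.56 without PHA and -0.04 with it. Both medians depend on the filter: with a mean FPKM of at least 0.1 they were 0.17 and -0.23. CDKN1B, the cell-cycle inhibitor p27, was at 13.7 FPKM in DMSO, 36.2 in JQ1, 14.8 in DMSO + PHA and 34.7 in JQ1 + PHA, and GAS2, a growth-arrest gene, was at 2.18, 0.414, 1.496 and 0.311. They went opposite ways. NDRG1, chosen after its values were seen, was the other gene past 2-fold, with a JQ1 log2 ratio of 1.38 without PHA. The medians for PHA were 0.21 in DMSO and -0.19 in JQ1, with 0 genes past 2-fold.

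Genes that work with MYC or MXD proteins are described next. All 17 genes of the SIN3 corepressor passed the filter, with JQ1 medians of 0.19 without PHA and 0.22 with it and PHA medians of -0.03 in DMSO and 0.00 in JQ1. The genes past 2-fold were ARID4B (1.33) and ING1 (1.15) for JQ1 against DMSO and SAP30L (1.32) for JQ1 + PHA against JQ1, all 3 higher and chosen after their values were seen. The 15 MYC cofactors had JQ1 medians of -0.04 and -0.19 and PHA medians of -0.08 and 0.03. In both JQ1 comparisons TFAP4, an E-box factor that MYC induces, and KAT2A, a histone acetyltransferase, were past 2-fold lower. TFAP4 was at 3.21 FPKM in DMSO, 0.899 in JQ1, 2.78 in DMSO + PHA and 0.761 in JQ1 + PHA, and KAT2A was at 10.4, 3.32, 7.17 and 3.36. RUVBL1, chosen after its values were seen, was lower without PHA, at -1.05.

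Of the 21 genes of MYC protein turnover, 20 passed the filter, with JQ1 medians of 0.26 without PHA and 0.23 with it and PHA medians of 0.09 and -0.01. PIM1, a kinase that phosphorylates MYC, was at 1.14 FPKM in DMSO, 4.39 in JQ1, 1.33 in DMSO + PHA and 4.51 in JQ1 + PHA. TRIM32, a ubiquitin ligase chosen after its values were seen, changed direction as MXI1 did but with the opposite sign, at 0.544, 2.30, 3.77 and 0.464 FPKM. Among the 10 targets of MondoA and MLX, 8 passed the filter, with JQ1 medians of -0.09 and -0.33 and PHA medians of 0.06 and -0.04. In that list ARRDC3, an arrestin-domain gene, was at 2.77, 12.3, 2.66 and 10.9 FPKM in the order above. The lipid synthesis genes FASN and ACACA were lower with JQ1, FASN at 18.6, 5.48, 17.4 and 5.41 FPKM and ACACA at 9.77, 3.99, 8.50 and 3.83. The lists of genes repressed by MYC and of MondoA and MLX targets share TXNIP and ARRDC4.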

How the data were processed

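RNA-seq of 4 Jurkat libraries was analysed, 1 per condition. The authors aligned reads to GRCh38 with Hisat2 2.0.4, and the submitters' processing notes also name TopHat2 2.0.9 and Cufflinks 2.1.1. The deposited values are counts of reads per gene, not normalized, and FPKM that the authors computed from them. The counting program, its strand setting and the annotation release are not given in the sources used here, and the library kit named in the labels differs from that in the methods.

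Members were found by gene name, and members and gene lists were chosen with earlier results of these data known. Ratios are of a gene's count over the library total, with exact (Clopper-Pearson) 95% intervals. A log2 ratio of FPKM with a pseudocount of 0.1 was used for the 2-fold counts, among genes whose mean FPKM reached 1. Intervals of single FPKM values are exact Poisson intervals of the count, and shares have Wilson intervals. The joined exon lengths came from GENCODE release 44, and promoters from RefSeq. The intervals were tested on data simulated with counting error only, which is the error they assume. That test therefore says nothing on variation between cultures.

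All members and MGA, MLXIP and MLXIPL are named. From each other list, up to 3 genes per direction past 2-fold the same way in both JQ1 comparisons are named, as are the 5 genes nearest in pattern to MYC and to the antagonist with the highest mean FPKM, and genes that overlap a member and hold counts. Other names are marked as chosen after their values were seen.

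Alternatives were other pseudocounts, filters, fold thresholds and scalings, and, for the activator to antagonist ratio, lengths, counts and left-out members. Those for the differences of JQ1 ratios, the counts of members and the nearest genes were chosen after seeing the data. Scaling factors of the counts came from edgeR 4.0.16 and DESeq2 1.42.0, both under R 4.3.3, and were their sole use. The remaining steps ran under Python 3.11.15. Intervals used scipy 1.17.1, tables pandas 2.3.3 and numpy 2.4.6, and plots matplotlib 3.10.9. The study's other assays were left out. A marker of the B-cell list is not reported here.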

Additional observations from a re-analysis of the deposited data

Results flagged for a closer look

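MXI1 went opposite ways with JQ1 depending on PHA, with log2 ratios of -1.78 for JQ1 against DMSO and 1.02 for JQ1 + PHA against DMSO + PHA. It did so with PHA too, at -1.62 for DMSO + PHA against DMSO and 1.19 for JQ1 + PHA against JQ1. The 4 values come from the same 4 libraries, so both contrasts are 1 pattern. MYCL went opposite ways with PHA, at -0.43 in DMSO and 1.03 in JQ1, from 16 to 107 counts per library. With 1 library per condition these differences were not tested against replicate spread, and each rests on single libraries.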

How the results depend on the processing

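Without replicates, each value rests on 1 library and the intervals leave out variation between cultures. No paired analysis was possible because each condition has 1 library. The directions that turned were those of the JQ1 folds of the activator to antagonist ratio given last, of the MYC-repressed median for JQ1 + PHA against JQ1, which was 0.09 rather than -0.19 with a mean FPKM of at least 0.1, and of values near 0: with TMM factors that list's median for JQ1 + PHA against DMSO + PHA was 0.01 rather than -0.04, and with TMM or DESeq2 factors the MNT ratio for DMSO + PHA against DMSO was -0.01 rather than 0.01. Of the network gene ratios, 314 of 336 moved by less than their counting interval, and 21 of the 22 others did so with a pseudocount of 1, which shrinks low genes. The differences of JQ1 ratios were within their intervals in 24 of 24 recomputations with TMM or DESeq2 factors. The members past 2-fold higher with JQ1 in the presence of PHA, 2 as reported, were 4 with TMM factors, 3 with a pseudocount of 0.01 and 0 with a pseudocount of 1. Without PHA the members past 2-fold higher with JQ1, 3 as reported, were 1 with a pseudocount of 1.

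The number of genes past 2-fold was 1595 for JQ1 against DMSO, 1344 for JQ1 + PHA against DMSO + PHA, 378 for DMSO + PHA against DMSO and 238 for JQ1 + PHA against JQ1. In that order it was 3739, 3416, 1617 and 1241 with a mean FPKM of at least 0.1, 570, 467, 104 and 68 with at least 5, and 4742, 4500, 2588 and 2058 without a filter on FPKM. It was 3924, 3388, 1083 and 648 at 1.5-fold and 881, 754, 189 and 114 with a pseudocount of 1.

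The activator to antagonist ratio in DMSO, JQ1, DMSO + PHA and JQ1 + PHA was 0.261, 0.194, 0.404 and 0.280 without MNT, and 0.235, 0.337, 0.370 and 0.395 without MXD4. Without MXI1 it was 0.249, 0.172, 0.282 and 0.273 in the same order. As the ratio of geometric means it was 0.396, 0.258, 0.533 and 0.279, and from scaled counts without length 0.122, 0.133, 0.156 and 0.192. With JQ1 the ratio was higher rather than lower without MXD4 and from scaled counts without length, and with PHA it was higher in each of these.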

Other observations

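The genes whose profile over the 4 libraries lay nearest to that of MYC were CAMSAP2, SH3BP5-AS1, RP11-196G18.23, CTD-2017D11.2 and CTC-435M10.12, at root mean square distances of 0.113, 0.126, 0.129, 0.140 and 0.162 on the centred log2 scale of FPKM + 0.1. Among 11502 genes, 36 lay within 0.25 of MYC. With a pseudocount of 1 there were 822, and 2 of the nearest 5 were shared, so the names depend on the scale. For MXD4 the nearest were C1QTNF3, SLC2A11, RP11-104N10.2, MGEA5 and CTD-2260A17.2, at 0.0291 to 0.0439, and 820 genes lay within 0.25. Of these 5 names, 1 was shared with a pseudocount of 1 and 2 with a pseudocount of 0.01, so they depend on the scale too. Between members, MLX and MNT were closest, at 0.0664, followed at 0.199 by MXD4 and MXD3, while MYC lay 0.303 from MXD3. These distances describe 4 libraries and have no test.

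In the RefSeq promoter table, 31 of the 35 MYC-induced targets had an entry, and 9 of these (29.0%) held CACGTG in the 250 bases before the start, against 7.73% of all gene symbols and 11.7% of the 7630 such entries whose mean FPKM reached 1. The excess was not particular to this list. The share was 57.1% (4 of 7) for the MondoA and MLX targets and 22.2% (2 of 9) for the MYC cofactors. It was 20.0% (3 of 15) for the turnover genes, 18.2% (2 of 11) for the MYC-repressed targets and 6.25% (1 of 16) for the SIN3 corepressor genes. A match is a description of letters and not a binding site.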
